A study of Mus musculus with 8 samples.

Results

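The subject here is a set of 34 stress and early response genes in brain endothelial cells: 19 immediate-early genes and their feedback inhibitors, 12 heat shock proteins and other chaperones, and p53 with 2 of its targets. They were taken by gene symbol from a list that was drawn up with earlier results of these data known, and all 34 were present among the 24394 symbols shared by the tables. The cells were sorted by flow cytometry from the brains of C57BL/6J mice at postnatal day 8. The WT group (4 libraries) was wild type. The YT-ECKO group (4 libraries) carried VE-cadherin-CreERT2, a tamoxifen-inducible Cre recombinase expressed from an endothelial promoter, with floxed alleles of Yap and Taz (Yapf/f Tazf/f). These genes, with the mouse symbols Yap1 and Wwtr1, encode the transcriptional co-activators of the Hippo pathway. The labels do not say that WT mice carried the Cre or received tamoxifen, nor whether a library came from 1 mouse or from pooled mice. Cre activity, tamoxifen and the floxed alleles therefore cannot be told apart from the loss of Yap and Taz, and p-values measure the spread between these libraries only.

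Immediate-early genes are transcribed within minutes of a stimulus, without new protein synthesis. Growth factors, shear and stretch induce them in endothelium, and so does the enzymatic dissociation of tissue that comes before cell sorting. Many encode transcription factors (AP-1, the EGR family), and others encode phosphatases or RNA-binding proteins that end the response. Heat shock proteins fold newly made or damaged proteins, and their inducible members are switched on by the factor Hsf1. The p53 protein is stabilised by DNA damage and other stress, switches on the cell cycle inhibitor gene Cdkn1a, and is held in check by Mdm2, itself a p53 target.

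The upstream sequences of 5 members are shown first because each carries the letters of a regulatory element known for its class. Each is the 250 bases before a RefSeq start (GRCm38.p6), read 5′ to 3′ on the gene's strand, with the motif matches in capitals. For Fos (chr12:85473640-85473889, plus strand) and Dusp1 (chr17:26508473-26508722, minus strand) the motif was TGACGT, the core of a cyclic AMP response element. For Hspa1a (chr17:34972157-34972406, minus strand) and Hspa1b (chr17:34959239-34959488, minus strand) it was GAANNTTC, a unit of the heat shock element. For Cdkn1a (chr17:29090729-29090978, plus strand, the upstream of 2 starts) it was a pair of CATG cores 6 bases apart, as in a p53 response element.
Fos: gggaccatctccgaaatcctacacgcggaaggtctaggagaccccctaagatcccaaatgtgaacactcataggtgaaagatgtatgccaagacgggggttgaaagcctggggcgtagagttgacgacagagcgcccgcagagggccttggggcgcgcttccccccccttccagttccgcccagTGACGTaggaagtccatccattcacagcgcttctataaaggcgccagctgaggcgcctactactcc
Dusp1: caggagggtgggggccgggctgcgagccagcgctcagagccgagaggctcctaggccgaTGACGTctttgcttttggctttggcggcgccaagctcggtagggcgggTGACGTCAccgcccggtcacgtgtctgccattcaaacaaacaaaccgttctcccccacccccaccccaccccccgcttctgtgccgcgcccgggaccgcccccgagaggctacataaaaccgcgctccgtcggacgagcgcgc
Hspa1a: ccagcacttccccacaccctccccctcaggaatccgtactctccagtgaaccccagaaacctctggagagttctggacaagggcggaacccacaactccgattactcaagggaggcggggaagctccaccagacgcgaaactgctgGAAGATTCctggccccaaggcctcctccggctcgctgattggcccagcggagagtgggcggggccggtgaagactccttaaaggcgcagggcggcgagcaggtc
Hspa1b: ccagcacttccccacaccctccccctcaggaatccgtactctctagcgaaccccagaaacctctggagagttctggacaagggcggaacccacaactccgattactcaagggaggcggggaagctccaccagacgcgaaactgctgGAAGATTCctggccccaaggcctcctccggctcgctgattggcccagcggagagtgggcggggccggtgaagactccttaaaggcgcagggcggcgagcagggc
Cdkn1a: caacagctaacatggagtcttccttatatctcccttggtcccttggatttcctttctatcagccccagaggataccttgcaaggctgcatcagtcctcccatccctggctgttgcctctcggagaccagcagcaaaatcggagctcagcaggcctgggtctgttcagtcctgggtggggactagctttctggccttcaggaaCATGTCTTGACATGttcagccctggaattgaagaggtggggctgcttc
The match in Fos began 66 bases before the start. Dusp1 had 2 separate stretches, of which the longer one read TGACGT on both strands. The windows of Hspa1a and Hspa1b differed at 3 of 250 bases. Each had its heat shock unit 104 bases before the start.

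Windows were found for 28 of the 34 members (38 windows, all starts of a gene counted). Of the 9 immediate-early members outside the AP-1 genes and feedback inhibitors, 6 had a window, as did 6 of the 9 cytosolic chaperones. Members without a window were not searched, so their absence below does not mean that a motif is missing. Percentages count windows, and the names are of genes. Both strands were searched. GAANNTTC was present in 6.70% of all 32841 windows and in those of 7 members: 4 of the 6 cytosolic chaperone genes with a window (Dnaja1, Hspa1a, Hspa1b, Hspb1), 2 of the 3 organelle chaperone genes (Hspd1, Hspe1) and Jun. TGACGT was present in 6.47% of all windows and in those of Atf3, Btg2, Dusp1, Egr2, Fos and Hspa5. The CArG box, bound by serum response factor, was present in 1.47% of all windows and in those of Egr2 and Zfp36. The AP-1 site TGANTCA was present in 6.75% of all windows and in those of Hspa5 and Zfp36l1. The pair of p53 cores was present in 0.490% of all windows and, among members, in that of Cdkn1a alone. These are matches of letters, and binding was not measured.

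Values are given as scaled reads, the deposited log2 values returned to the linear scale, and values per library follow the order of replicates 1 to 4. Each library summed to 10.3 to 10.9 M scaled reads, and the spacing of low values implied 6.66 M (YT-ECKO 1) to 16.8 M reads (WT 1). Wwtr1 stood at 348 to 2608 scaled reads across YT-ECKO and 5650 to 8220 in WT, and Yap1 at 9.29 to 605 against 1409 to 2833, so the libraries followed their labels. Wwtr1 was 1 of the 3 genes called over all genes (limma adjusted p = 0.0113), and Yap1 was not (limma adjusted p = 0.175). All 12 brain endothelial markers were above 0 in every library except Ocln, which was at 0 in YT-ECKO 1. Their sums were 90632 to 115412 in YT-ECKO and 89975 to 105244 in WT. Of 8 microglia and leukocyte markers, Ptprc, Tyrobp and C1qa were listed at 0 in all 8 libraries, and the sum of the list was at most 161. Hemoglobin and other erythroid markers (8 of 8 above 0 in some library, Slc4a1 in YT-ECKO 4 only) summed to 17869 to 60042 in YT-ECKO and 17632 to 49574 in WT. These sums count hemoglobin values more than once. Hba-a1 and Hba-a2 had identical values in every library, as did Hbb-bs and Hbb-b1, and Hbb-bt and Hbb-b2. Mural markers summed to 156 to 1248 against 413 to 1714, astrocyte markers to 497 to 1075 against 766 to 1240, neuron markers to 0 to 1896 against 5.97 to 187, and oligodendrocyte markers to 0 to 1182 against 0 to 329. The sums of 4 Y-linked genes did not overlap (486 to 1379 against 4.43 to 471), and the labels do not give the sex of the mice. The part of these differences in the results below was not tested. A gene could be listed at 0 in a library and be well detected in another of the same group: 44.3% of all tested genes and 8 of the 32 tested members were at 0 in some library. For such genes the single values are given, without mean or SD.

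No member passed the test over all genes. Of the 34 members, 32 reached 10 scaled reads in 4 or more libraries and were tested, and 0 had a limma adjusted p under 0.05 (lowest 0.623, for Egr1), where 0.0345% of all 8706 tested genes did. At an unadjusted p under 0.05 there were 3 members, Egr1, Jund and Junb, all with higher values in YT-ECKO, against 5.47% of all genes (1.78% with higher and 3.69% with lower values). Voom on rebuilt reads also called 0 members, with 5 at an unadjusted p under 0.05. The groups did not overlap for 1 member, Dusp1, which was lower in all 4 YT-ECKO libraries, against 3.40% of all tested genes and 2.07% in that direction. The design allows no exact permutation p below 0.0286.

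The role groups leaned in different directions, which is given as a description. Among immediate-early members 13 of 17 tested had higher values in YT-ECKO (median log2 difference 0.36), among chaperones 4 of 12 (median -0.33), and all 3 p53 members did (median 0.59). Single libraries moved these values: without WT 1 the immediate-early median was 0.22 and 0 of 12 chaperones had higher values, and without WT 4 the p53 count was 2 of 3 with a median of 0.33. Without YT-ECKO 1 the p53 median was 1.0. Over all tested genes 43.1% had higher and 56.9% lower values, and the median was -0.09. With upper quartile scaling, which moved the median of all genes to -0.22 and the share higher to 32.7%, these counts were 11 of 17 (64.7% against 76.5%), 2 of 12 (16.7% against 33.3%) and 3 of 3. In RNA from sorted cells in bulk, fewer cells with a transcript and less of it per cell cannot be told apart. The 95% confidence interval of a member, not adjusted for the number of genes, extended by 0.96 (median, log2) above and below its estimate. Differences below about that size were mostly not detectable. The adjusted test over all genes also left larger ones uncalled, such as Egr1 at 1.54, Jund at 1.27 and Yap1 at -2.39.

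**Figure D1:**
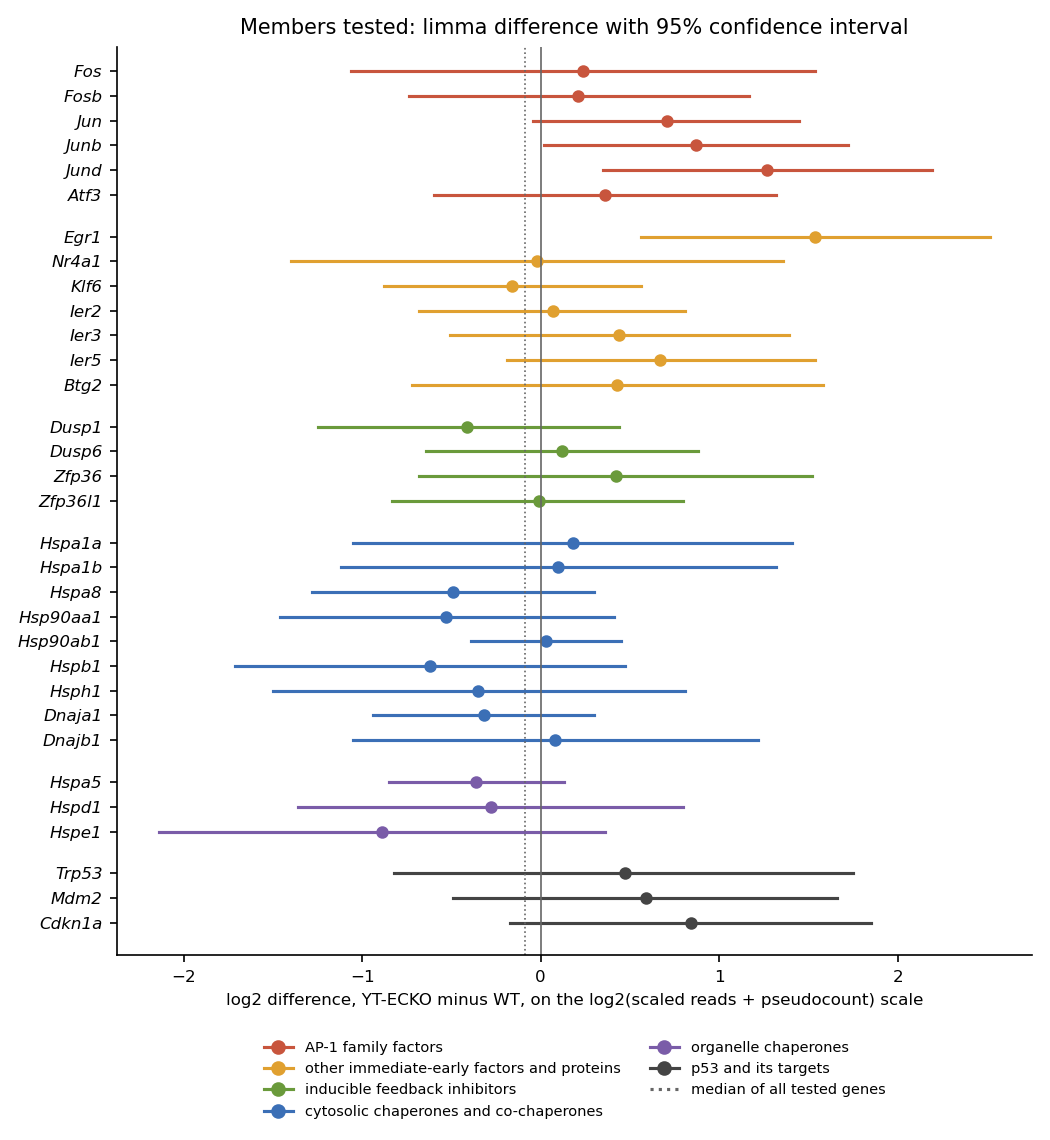
Log2 difference (YT-ECKO minus WT) of the 32 tested members on the log2(scaled reads + 128) scale; points are limma estimates, lines 95% confidence intervals, colours the role, and the dotted line the median of all tested genes (-0.09). The 6 AP-1 genes and 3 p53 genes lie right of 0, the 3 organelle chaperones left of it, and only Junb, Jund and Egr1 have an interval that does not reach 0.

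The AP-1 genes encode the Fos and Jun proteins and their partner Atf3, which bind DNA as dimers. Jund (chromosome 8, 70698949 to 70700616, plus strand), the Jun protein with the most constant expression in many cell types, stood at 2195, 1367, 2420 and 2402 scaled reads across YT-ECKO and at 908, 751, 1587 and 298 in WT. YT-ECKO 2 alone lay below the highest WT library, WT 3. The YT-ECKO mean was 2.37 times the WT mean (2096 ± 497 against 886 ± 534, SD, n = 4 each; two-sided exact permutation p = 0.0571). The log2 difference was 1.27 ± 0.45 (SE; limma unadjusted p = 0.00866, adjusted p = 0.698). Without any single library it lay between 0.91 (WT 4 left out) and 1.58 (WT 3 left out). A predicted gene, Gm11175, overlaps Jund on the other strand. No source used here gives the strand setting of the counting, so reads of the pair cannot be told apart. Exons of 12 members overlap those of another gene, with Jun, Zfp36, Zfp36l1, Hspa1a and Dnaja1 among them.

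Junb (chromosome 8, 84974484 to 84978718, minus strand), a Jun protein induced by growth factors, stood at 1662, 4405, 2892 and 2116 scaled reads across YT-ECKO and at 1120, 805, 1390 and 2678 in WT. The groups overlapped through WT 4, which exceeded YT-ECKO 1 and 4. The difference was 0.87 ± 0.41 (SE; limma unadjusted p = 0.0452, adjusted p = 0.905; exact permutation p = 0.143). Its unadjusted p was under 0.05 in 10 of the 19 alternatives, and the difference was lowest, 0.62, without YT-ECKO 2. An exon of Prdx2 on the other strand overlaps this gene. Jun itself stood at 3735, 4946, 4173 and 4170 scaled reads across YT-ECKO, a narrow range, and at 1435, 1857, 5057 and 3042 in WT, where the highest and lowest library enclosed all 4 YT-ECKO values. Its log2 SD was 0.16 within YT-ECKO and 0.77 within WT, and the difference was 0.71 ± 0.36 (SE; limma adjusted p = 0.928).

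Fos, the partner of the Jun proteins and the gene most used as a sign of recent stimulation, did not separate the groups. It stood at 1.59, 796, 766 and 441 scaled reads across YT-ECKO and at 148, 238, 358 and 506 in WT. YT-ECKO 1 was thus near 0 while YT-ECKO 2 and 3 were above every WT library. The difference was 0.24 (95% interval -1.06 to 1.54), and its sign turned to -0.80 with a pseudocount of 1. Fosb, a close relative of Fos, was listed at 0 in WT 1 and YT-ECKO 1, stood at 1.99 in WT 4, and lay between 56.8 and 229 in the other 5 libraries. Atf3, a stress-induced factor that can pair with Jun, was listed at 0 in WT 1, WT 3 and YT-ECKO 2, stood at 120.3 and 87.5 in WT 2 and 4, and at 174, 338 and 3.47 in YT-ECKO 1, 3 and 4. Both genes thus varied as much within a group as between groups.

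Egr1, a zinc finger factor induced through serum response factor, had the largest difference of the members. It stood at 749.6, 1890, 2565 and 1874 scaled reads across YT-ECKO and at 252, 698, 776 and 343 in WT. YT-ECKO 2, 3 and 4 lay above all WT libraries, and YT-ECKO 1 just below WT 3. The YT-ECKO mean was 3.42 times the WT mean (1770 ± 753 against 517 ± 258, SD, n = 4 each; exact permutation p = 0.0571). The log2 difference was 1.54 ± 0.48 (SE; limma unadjusted p = 0.00351, adjusted p = 0.623), and it lay between 1.32 and 1.87 when each library was left out in turn. It did not pass the adjustment in any of these fits or in the other alternatives run (adjusted p of at least 0.370).

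The other EGR genes were low or at 0. Egr3 was above 0 only in WT, at 7.32, 240.4 and 226 scaled reads in WT 1, 2 and 3, and was listed at 0 in WT 4 and all YT-ECKO libraries, so it was not tested. Egr2 was listed at 0 in all 8 libraries. Nr4a1, an orphan nuclear receptor gene, was the member with the widest spread within groups (log2 SD 1.14, a value that 90.6% of tested genes did not reach). It stood at 12.9, 828, 362 and 169 scaled reads in WT, while YT-ECKO 1 had a listed 0 and YT-ECKO 2 to 4 held 371, 659 and 243. Btg2, an antiproliferative gene that p53 also induces, stood at 576, 432, 1016 and 275 in YT-ECKO and at 425, 222, 852 and 161 in WT, with a difference of 0.43 ± 0.56 (SE).

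Of the remaining early genes, Ier3 and Ier5 had higher means in YT-ECKO and Ier2 and Klf6 were nearly level. Ier5, which encodes a regulator of Hsf1, stood at 995, 1389, 1697 and 2044 scaled reads across YT-ECKO and at 869, 805, 640.0 and 1333 in WT. Only YT-ECKO 1 lay within the WT range. Ier3, which affects cell survival, stood at 583, 1205, 856 and 741 in YT-ECKO and at 549.9, 501, 569 and 677 in WT, again with only YT-ECKO 1 in the WT range. The exact permutation p was 0.0571 for each, and the limma differences were 0.67 ± 0.42 and 0.44 ± 0.46 (SE). Ier2 stood at 1599 to 2236 scaled reads across YT-ECKO and 1344 to 2113 in WT, a difference of 0.07 with a 95% interval from -0.68 to 0.81. Klf6, a zinc finger factor induced in injured endothelium, stood at 1764 to 2101 against 1599 to 2671, a difference of -0.16 (-0.88 to 0.56).

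**Figure D2:**
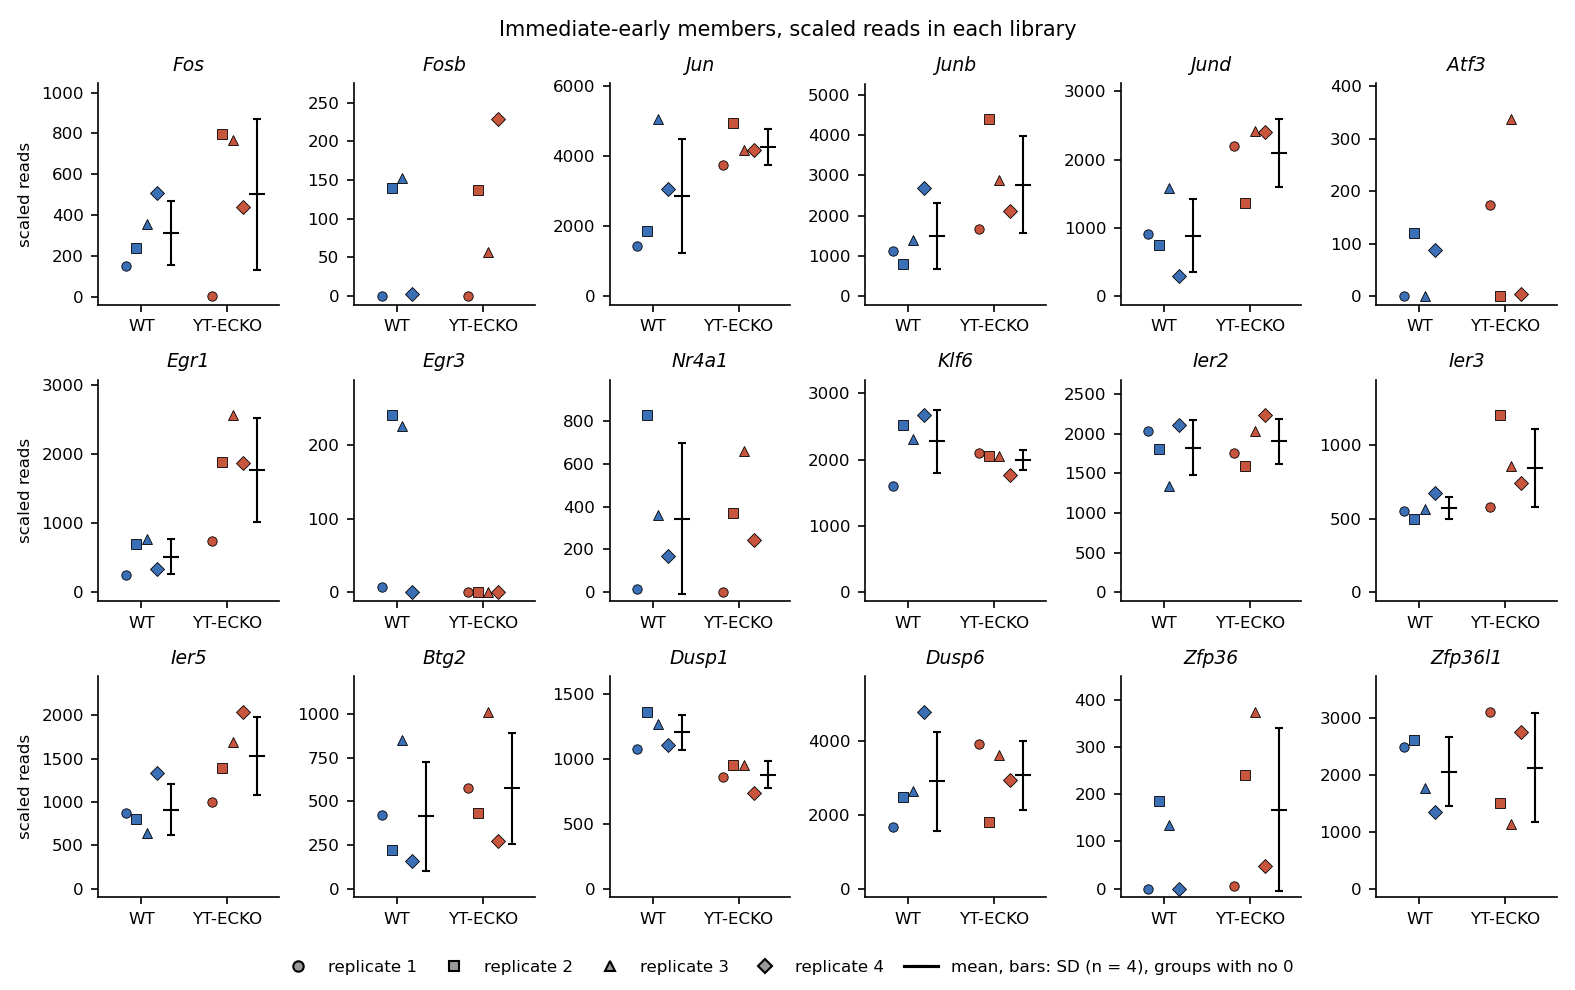
Scaled reads (linear axes, 1 panel per gene) of the 18 immediate-early members above 0 in any library; symbols are replicates, bars the mean and SD of groups with no library at 0. In Egr1 the YT-ECKO replicates 2 to 4 lie above all WT points, in Dusp1 all YT-ECKO points lie below all WT points, and in Fos and Nr4a1 YT-ECKO 1 is at or near 0.

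Feedback inhibitors had both signs. Dusp1 (chromosome 17, 26505590 to 26562128, minus strand) encodes a phosphatase that inactivates MAP kinases. Its upstream sequence, shown above, precedes a RefSeq start that lies inside this annotated span. Dusp1 stood at 862, 953, 953 and 739 scaled reads across YT-ECKO and at 1077, 1362, 1264 and 1106 in WT. All 4 YT-ECKO libraries were below all 4 WT libraries, with means of 877 ± 101 and 1202 ± 134 (SD, n = 4 each; two-sided exact permutation p = 0.0286, the smallest possible). Its log2 SD within groups, 0.15, was the second lowest of the members. The moderated test, which widens such small spreads toward those of other genes, gave a difference of -0.41 ± 0.41 (SE; limma adjusted p = 0.990). Ergic1 overlaps an exon of Dusp1 on the other strand. Dusp6, which acts on ERK, stood at 3940, 1808, 3621 and 2945 in YT-ECKO and 1686, 2492, 2663 and 4811 in WT, with wide overlap. Zfp36l1, an RNA-binding protein that promotes decay of early transcripts, stood at 3117, 1515, 1135 and 2751 against 2497, 2625, 1772 and 1342. Its relative Zfp36 was listed at 0 in WT 1 and WT 4, stood at 185 and 135 in WT 2 and 3, and at 4.68, 241, 375 and 47.1 in YT-ECKO.

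A further list of 34 early response genes, none of them a member, had 28 tested genes, of which 16 had higher and 12 lower values in YT-ECKO (median 0.13), 0 were called, and 2 had an unadjusted limma p under 0.05. Nr4a2, a nuclear receptor gene related to Nr4a1, was listed at 0 in WT 1, 3 and 4 and stood at 510.2 in WT 2, and at 379, 500.1, 482 and 510.2 in YT-ECKO (1.63 ± 0.61, SE; limma adjusted p = 0.754). Mafk, a small Maf factor, stood at 6.10, 0, 28.6 and 145 in WT and at 479, 392, 436 and 0 in YT-ECKO (1.24 ± 0.58, SE; limma adjusted p = 0.896). The 2 with the highest means were Tsc22d1, at 37225 to 48881 scaled reads across YT-ECKO and 34612 to 49943 in WT, and the NF-kappaB inhibitor gene Nfkbia, at 5623 to 8416 against 4922 to 6043.

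Replicate 1 of each group had the most members listed at 0, 6 in WT 1 and 6 in YT-ECKO 1, against 1 to 4 in the other libraries, and Fosb, Egr2, Hspa1a and Hspa1b were among them in both. WT 1 had the lowest WT value of 8 of the 17 tested immediate-early members and of 7 of the 12 chaperones. YT-ECKO 1 had the lowest YT-ECKO value of 9 of the 17. Of the 12 chaperones, however, YT-ECKO 1 had the lowest YT-ECKO value of 3 and the highest of 5. The same counts over all tested genes were not made, so these are not shown to be particular to the members. Over all genes, YT-ECKO 1 had the fewest symbols above 0 (7538, against 8408 to 8762 in YT-ECKO 2 to 4), and WT 1 had the most (9720). WT 1 and YT-ECKO 1 had the highest and the lowest implied depth, 16.8 and 6.66 M reads. YT-ECKO 1 also had the highest sum of neuron markers (1896). Nearly all of it was Rbfox3 (1375) and Stmn2 (519.9), with Tubb3 at 1.61 and Snap25, Syt1 and Gad1 at 0. The part of depth and of these markers in the low values was not tested. Summed over the 19 immediate-early members, WT libraries held 14626, 18210, 21456 and 21340 scaled reads and YT-ECKO libraries 22455, 25113, 27611 and 25021. These immediate-early sums did not overlap, by a margin that was narrow between WT 3 and YT-ECKO 1. The sums of the other classes and of all members did overlap. For chaperones they ran from 40471 to 43732 in YT-ECKO against 41111 to 54473 in WT. For p53 members they ran from 1709 to 6633 against 1912 to 2690, and for all members from 67896 to 74789 against 57943 to 75373. How often sums of as many other genes separate the groups was not examined. Such sums mostly reflect abundant members such as Jun, Dusp6 and Klf6. In YT-ECKO the means were higher for Jun (4256 against 2848), Junb (2769 against 1498), Jund (2096 against 886) and Egr1 (1770 against 517). The mean of Dusp6 was nearly level (3078 against 2913) and that of Klf6 lower (1994 against 2276). The sums are thus not separate from the single genes above, and no test is given for them. Leaving out YT-ECKO 1 raised the immediate-early median to 0.54, and leaving out YT-ECKO 3 lowered it to 0.20.

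No cytosolic chaperone was called, and their log2 SD within groups ran from 0.12 to 1.02. Hspa1a (chromosome 17, 34969190 to 34972156, minus strand) and Hspa1b (chromosome 17, 34956436 to 34959238, minus strand) are neighbouring copies of the inducible Hsp70 gene, with the nearly identical upstream sequences shown above. Reads may be split between such near-identical copies, and each value is therefore uncertain. Hspa1a was listed at 0 in WT 1 and YT-ECKO 1, stood at 238, 127 and 165 scaled reads in WT 2 to 4, and at 223, 573 and 57.5 in YT-ECKO 2 to 4. Hspa1b was listed at 0 in WT 1, WT 4 and YT-ECKO 1, stood at 241 and 339 in WT 2 and 3, and at 125, 480.0 and 60.9 in YT-ECKO 2 to 4. Both were thus at 0 in replicate 1 of each group and highest in YT-ECKO 3. Dnajb1, the inducible Hsp40 partner of Hsp70, stood at 2038, 466, 749 and 1269 in YT-ECKO and at 386, 2247, 396 and 1830 in WT. It was high in YT-ECKO 1, where Hspa1a and Hspa1b were at 0, and its log2 SD within groups was 1.02. Hsph1, a nucleotide exchange factor for Hsp70, stood at 20.8, 192, 234 and 202 in WT and at 1.59, 0, 154 and 338 in YT-ECKO.

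Among the other cytosolic chaperones, Hsp90ab1, the constitutive Hsp90, stood at 21589, 22646, 18066 and 20087 scaled reads across YT-ECKO and at 19017, 19336, 21233 and 21115 in WT. Its log2 SD of 0.12 was the lowest of the members, with 0.103% of all tested genes below it, and its difference of 0.03 had a 95% interval from -0.39 to 0.45. The sign of that difference turned to -0.18 with upper quartile scaling. Hsp90aa1, the inducible Hsp90, stood at 1224, 479.7, 649 and 561 in YT-ECKO and at 911, 1565, 1049 and 784 in WT, a difference of -0.53 ± 0.46 (SE). Hspa8, the constitutive Hsp70, stood at 2366, 1707, 1145 and 2856 against 2494, 3359, 1636 and 4056, and the ratio of means was 0.699. Annotated exons of Hspa8 overlap small nucleolar RNA genes on the same strand. Dnaja1, a constitutive Hsp40, stood at 4699, 4564, 3626 and 2852 against 5607, 5312, 4402 and 4191 (-0.32 ± 0.30, SE). The small heat shock protein gene Hspb1 stood at 688, 277, 504 and 233 against 362, 1346, 848 and 473. For each of these 4 genes the YT-ECKO mean was lower, the groups overlapped and the exact permutation p was at least 0.171.

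Organelle chaperones all had lower means in YT-ECKO, without a call. Hspa5 (chromosome 2, 34771970 to 34777547, plus strand), which encodes BiP, the Hsp70 of the endoplasmic reticulum, stood at 10412, 12094, 14797 and 10521 scaled reads across YT-ECKO and at 11497, 19176, 15361 and 15980 in WT. The means were 11956 ± 2044 and 15504 ± 3151 (SD, n = 4 each; exact permutation p = 0.114), and the log2 difference was -0.36 (95% interval -0.85 to 0.13; limma adjusted p = 0.980). Hspd1 and Hspe1, the mitochondrial Hsp60 and Hsp10, form a chaperonin and are transcribed in opposite directions from neighbouring starts on chromosome 1, where their annotated exons overlap. Hspd1 stood at 314, 294, 489 and 1337 in YT-ECKO and at 623, 939.7, 753 and 395 in WT. Hspe1 stood at 402, 167, 0 and 298 in YT-ECKO and at 193, 522, 317 and 945 in WT. The pair did not share an order of libraries: within WT, library 4 was lowest for Hspd1 and highest for Hspe1.

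**Figure D3:**
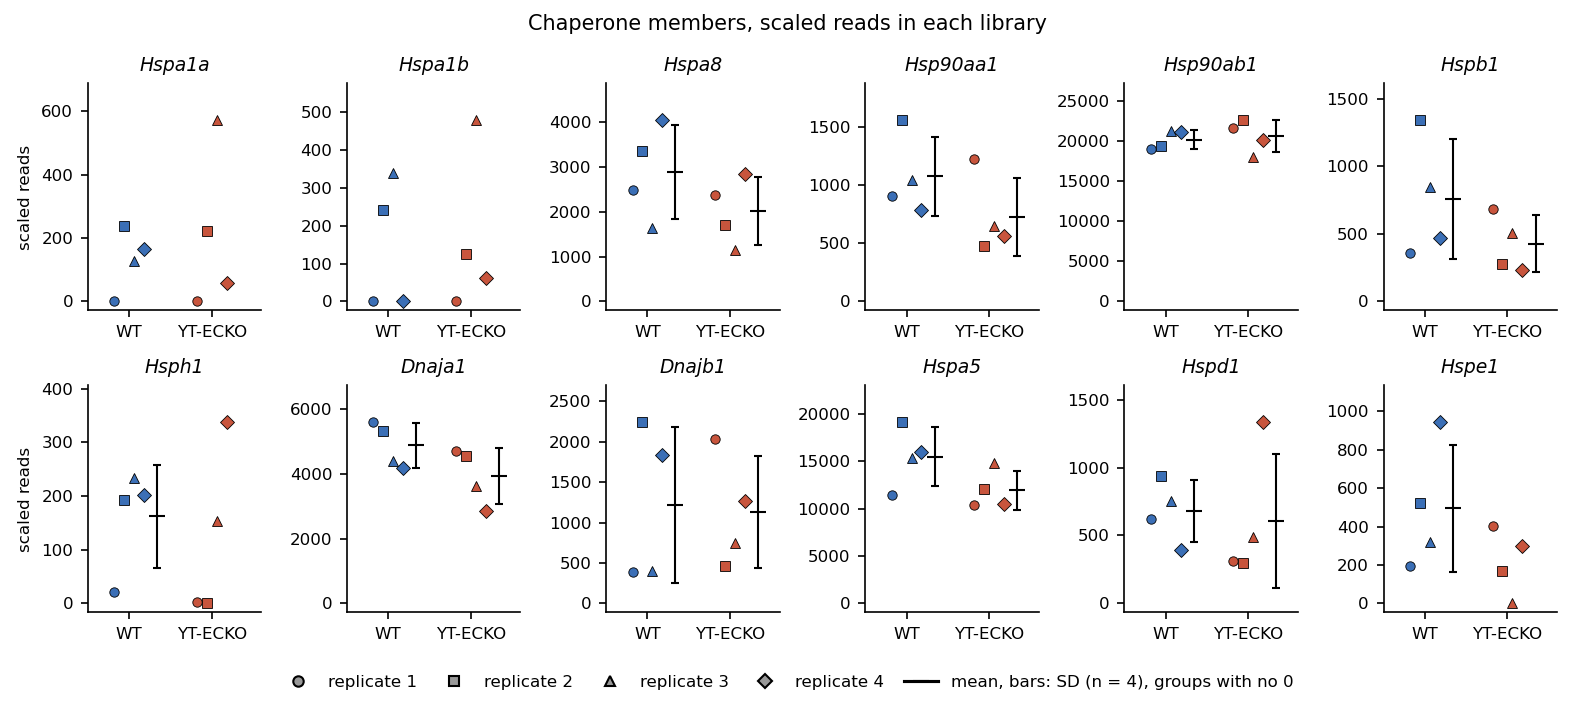
Scaled reads (linear axes, 1 panel per gene) of the 12 chaperone members; symbols are replicates, bars the mean and SD of groups with no library at 0. Hsp90ab1 lies between 18066 and 22646 in every library, while Dnajb1 runs from 386 to 2247 within WT, and Hspa1a and Hspa1b are at 0 in replicate 1 of both groups.

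Neither of the wider chaperone lists held a called gene. Of 30 tested genes among other heat shock factors, chaperones and co-chaperones, 13 had higher and 17 lower values (median -0.05), 0 were called by limma and 0 had an unadjusted p under 0.05. Serpinh1, the collagen chaperone Hsp47, stood at 34397 to 55995 scaled reads across YT-ECKO and 48746 to 62954 in WT, and the co-chaperone gene Dnajb6 at 1444 to 3722 against 2011 to 3618. Of 21 tested genes of the unfolded protein response of the endoplasmic reticulum, the pathway that induces Hspa5, 7 had higher and 14 lower values (median -0.22), with 0 called and 0 at an unadjusted p under 0.05. Pdia3, a disulfide isomerase, stood at 9242 to 13720 against 8068 to 11609, and the lectin chaperone gene Canx at 5584 to 8051 against 4676 to 9332.

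In the p53 group, Cdkn1a was higher in YT-ECKO 2, 3 and 4 than in any WT library but lowest of all in YT-ECKO 1. Cdkn1a (chromosome 17, 29090976 to 29100727, plus strand) encodes the cyclin-dependent kinase inhibitor p21. It stood at 591, 4801, 3772 and 3428 scaled reads across YT-ECKO and at 950.1, 1463, 1456 and 1645 in WT. The log2 SD was 1.27 within YT-ECKO and 0.31 within WT. The difference was 0.84 ± 0.49 (SE; limma unadjusted p = 0.0996, adjusted p = 0.960; exact permutation p = 0.143). Without YT-ECKO 1 it was 1.46 ± 0.36 (SE; unadjusted p = 5.3e-04), which still did not pass over all genes (limma adjusted p = 0.370). Without YT-ECKO 2 it was 0.54 ± 0.51 (SE; limma unadjusted p = 0.305). YT-ECKO 1 also had the lowest Wwtr1 and Yap1 values and the lowest depth, and the part of these in its Cdkn1a value was not tested. A transcript on the other strand overlaps Cdkn1a.

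Mdm2 (chromosome 10, 117688875 to 117710758, minus strand) encodes the ubiquitin ligase that removes p53. Its YT-ECKO libraries had the same order as those of Cdkn1a. The WT libraries did not: WT 4 was lowest for Mdm2 and highest for Cdkn1a. Mdm2 stood at 289, 1694, 1127 and 873 scaled reads across YT-ECKO and at 613, 846, 542 and 261 in WT. YT-ECKO 2, 3 and 4 again lay above all WT libraries, while YT-ECKO 1 lay within their range. The difference was 0.59 ± 0.52 (SE; limma adjusted p = 0.990), and 1.0 ± 0.48 without YT-ECKO 1 (limma adjusted p = 0.841). It was 0.29 without YT-ECKO 2 and 0.33 without WT 4. Trp53, the gene of p53 itself, showed another order. It stood at 828, 138, 392 and 349 in YT-ECKO and at 643, 381, 203 and 5.97 in WT, so within YT-ECKO it was highest in library 1, where both targets had their lowest YT-ECKO values. Without WT 4 its difference was -0.01. The p53 protein is regulated mainly by its stability, which RNA does not show.

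**Figure D4:**
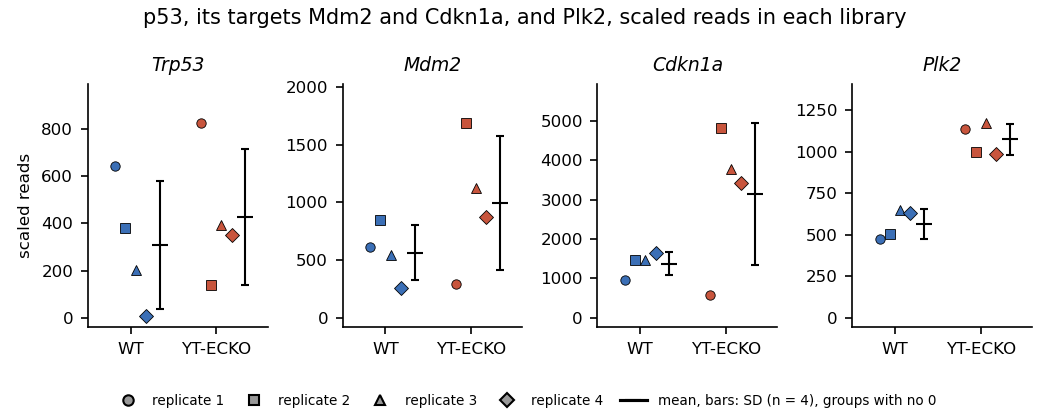
Scaled reads (linear axes, 1 panel per gene) of Trp53, Mdm2, Cdkn1a and Plk2; symbols are replicates, bars the mean and SD (n = 4). For Mdm2 and Cdkn1a the YT-ECKO replicates 2 to 4 lie above all WT points and replicate 1 does not; for Plk2 all 4 YT-ECKO points (985 to 1176) lie above all WT points (473 to 649).

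Other p53 targets and regulators lay evenly on both sides. Of 20 tested genes, 10 had higher and 10 lower values (median -0.05), 0 were called by limma and 0 had an unadjusted p under 0.05. Plk2, a polo-like kinase gene induced both by serum and by p53, was the 1 gene of the list whose groups did not overlap (in the higher direction 1.33% of all tested genes did not), and it is named after its values were seen. It stood at 1135, 1000, 1176 and 985 scaled reads across YT-ECKO and at 473, 505, 649 and 629 in WT, with means of 1074 ± 95.8 and 564 ± 88.1 (SD, n = 4 each; exact permutation p = 0.0286). Its log2 difference was 0.80 ± 0.44 (SE; limma adjusted p = 0.928). The 2 genes with the highest means were Mdm4, an Mdm2 relative, at 9.29, 1335, 2851 and 2992 in YT-ECKO and 2949, 911, 1491 and 3748 in WT, and Ei24, at 828 to 2410 against 874 to 2126.

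Within groups the members spread about as widely as other genes. The median log2 SD was 0.64 over the 32 tested members and 0.69 over all tested genes, and 0.54 against 0.53 among those averaging 1000 scaled reads or more. Between members it ran from 0.12 (Hsp90ab1) and 0.15 (Dusp1) to 1.02 (Dnajb1) and 1.14 (Nr4a1).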

How the data were processed

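RNA of sorted brain endothelial cells was sequenced in 8 libraries (Trizol RNA, Lexogen Quant-Seq kit, per the labels' protocols). Per the submitters' processing notes, the tools were Bowtie2 and edgeR and the build mm10. The sources used here do not give versions, annotation or strand setting. In the files deposited by the authors each library has 24421 symbols with a log2 value. The unit was settled from the values: linear values summed to 10.3 to 10.9 M, and 88.3% to 100% of values under 12 lay within 0.1 of a whole multiple of a step that differed between libraries. A listed 0 was kept at 0. The 27 symbols not shared by all tables were left out.

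The 8706 genes reaching 10 scaled reads in 4 or more libraries were tested with limma 3.58.1 (R 4.3.3, trended and robust moderation, no covariates) on log2(scaled reads + 128), which understates the change of low genes. The pseudocount was the power of 2 with the most even SD over 8 bins of the mean. Benjamini-Hochberg adjustment covered all tested genes (threshold 0.05). For single genes the difference in means was also tested by a two-sided exact permutation test (70 arrangements). Functions were tested on simulated data. Lists were described by counts and medians only.

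The members and lists were chosen with earlier results of these data known. Values per library were given for members without overlap, with an unadjusted p under 0.05 or among the 3 widest within-group spreads of their role; those of the other members are given in full or as ranges. Of the other lists, genes with an unadjusted p under 0.05 and the 2 with the highest means were named. Locations are from GENCODE M21 (GRCm38, the same assembly as mm10), upstream sequences from RefSeq (GRCm38.p6). Alternatives were pseudocounts, filters, scalings, a replicate block, the share of the ribosomal RNA precursor Rn45s as a covariate, voom with quality weights (limma) on reads rebuilt from the spacing of low values, and leaving out each library.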

Additional observations from a re-analysis of the deposited data

Results flagged for a closer look

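Klf6 in YT-ECKO 4, at 1764 scaled reads, lay apart from the other YT-ECKO libraries, which stood between 2052 and 2101. The gap was 0.855 of the group's range, above the critical value in Dixon's test for 4 samples. It was the only such case among 65 groups of 4 examined over the members (1.54%), where chance gives about 1 in 20. Klf6 in YT-ECKO 4 was still within the WT range.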

How the results depend on the processing

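No member was called under any of the 19 alternatives. Over all genes 3 were called, 0 with a pseudocount of 1, without a filter, with a mean of at least 1000 or with voom, and 0 to 6 when a library was left out (1 without WT 1, 0 without WT 2, 6 without YT-ECKO 3). With the replicate block 5 genes were called over all genes and 0 members. Deviations of same-numbered libraries correlated between -0.04 and 0.08, so the numbers were not taken as pairs. The AP-1 median of 0.53 was 1.04 with a pseudocount of 1 and 1.18 with voom, and 0.33 (without WT 1) to 0.89 (without YT-ECKO 1) with a library left out; the cause was not tested. Egr1, Jund, Junb, Dusp1, Cdkn1a and Mdm2 kept their signs throughout. Signs of small differences turned: Fos at -0.80 and -0.17 with pseudocounts of 1 and 16; Zfp36l1 at 0.00 with equal totals and 0.02 with median ratios; with the upper quartile Ier2 at -0.13, Dusp6 at -0.08, Hsp90ab1 at -0.18 and Dnajb1 at -0.10; Dnajb1 at -0.04 with the Rn45s share; Nr4a1 at 0.54 with voom. With a library left out, differences ran from -0.06 to 0.89 for Fos, -0.03 to 0.47 for Fosb, -0.49 to 0.49 for Nr4a1 and -0.07 to 0.14 for Ier2. They ran from -0.10 to 0.38 for Dusp6, -0.22 to 0.23 for Zfp36l1, -0.26 to 0.55 for Hspa1a, -0.33 to 0.44 for Hspa1b and -0.02 to 0.09 for Hsp90ab1. They ran from -0.26 to 0.47 for Dnajb1 and -0.01 to 0.83 for Trp53. Without WT 1, 0 of 12 chaperones had higher values. Members with low values were often listed at 0 in single libraries, and the deepest and the shallowest library (16.8 and 6.66 M implied reads) each had 6 members at 0.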
